A study of Homo sapiens with 9 samples.

Results

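Low-dose retinoic acid (RA) was set against its vehicle in NB4 cells, a human leukaemia line of promyelocyte type with the PML-RARA fusion gene. The 2 groups are NB4 cells kept for 24 h in RA at 0.01 uM and NB4 cells kept for 24 h in DMSO, with 1 library each out of the 9 libraries of the series. All loci of the treatment table whose test of this pair had not failed were taken, which gives 35120 of 35856. From here on, RA without a dose means RA at 0.01 uM, and every value is FPKM, fragments scaled to transcript length and library size. Both cultures were plated at the same density, and no gene edit is stated for either. The RA 1 uM library (24 h, 1 library) is used only to place genes along the dose, and untreated LSD1 knockout (KO) and wild-type (WT) NB4 libraries, 2 each, only to show how far like libraries differ. NB4 is 1 cell line, RNA came from whole cultures, and with 1 library a side there is no replicate error, no test and no p-value. A gene is called higher or lower by size alone, 2-fold or more on the FPKM + 1 scale, which is a log2 difference of at least 1 or at most -1; that scale understates changes of genes near 0. In RNA from a whole culture, fewer cells of a type and less RNA per cell cannot be told apart.

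RA acts through nuclear receptors, heterodimers of RARs and RXRs, which sit on direct repeats of a short DNA hexamer and switch from holding corepressors to holding coactivators when RA binds. In acute promyelocytic leukaemia the PML-RARA fusion protein holds many of these targets silent, and cells stay at the promyelocyte stage. RA at pharmacological doses releases this block, and the cells move toward neutrophils: they take up adhesion molecules, receptors and the respiratory burst, while granule genes of the promyelocyte stage are known to be shut down.

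The scale of the comparison was set by 9830 protein-coding genes with 1 locus and at least 1 FPKM in 1 of both libraries. Of these, 479 were called higher with RA (4.87%) and 276 lower (2.81%). The same size rule marked 3.84% of genes between WT 1 and WT 2 and 3.41% between KO 1 and KO 2, in either direction, and those values belong to another deposited table, used only within itself. Of the 752 called genes with values there, 716 differed more between RA and DMSO than between either pair of like libraries, and 103 were themselves 2-fold apart between like libraries. Below, a difference between like libraries is the larger of these, as an absolute log2 value, and numbers in brackets after a gene are log2 differences between RA and DMSO. The called genes were chosen at a log2 size of at least 1. The median difference between like libraries was 0.34 for tested genes of 1 to 5 FPKM and 0.43 at 50 FPKM or more. The selection by size therefore largely fixed the count of 716. Of the 9830 tested genes, 9302 were under 2-fold in both pairs of like libraries, against 424 of 479 higher and 225 of 276 lower genes. Called genes thus held a larger share of genes that vary between like libraries or lack values there. No test of this was made. The authors' deposited table marks 3.85% of the 9830 genes as significantly higher and 2.08% as significantly lower with RA, and 350 higher and 163 lower genes carry both calls. The rises were larger than the falls: 171 genes were at least 4-fold higher and 31 at least 4-fold lower, 73 and 4 passed 8-fold, and 23 and 0 passed 32-fold. The 0 depended on the pseudocount: with 0.1 FPKM added in place of 1 FPKM, 258 genes were at least 4-fold higher and 105 at least 4-fold lower, and 44 and 2 passed 32-fold. Higher genes stood at a median of 23.0 FPKM with RA and 3.84 FPKM with DMSO, and 129 of them were under 1 FPKM with DMSO. Lower genes stood at a median of 2.54 FPKM with RA and 9.43 FPKM with DMSO. Among genes of 50 FPKM or more in 1 library, 7.57% were higher and 1.73% lower, against 4.65% and 4.48% among genes of 1 to 5 FPKM. The median of all tested genes was -0.06 on the log2 scale. Just past the line for a call stood C1orf54, with a log2 difference of 1.003, and AEBP1, with -1.002, and just short of it VAV1, with 0.998, and MND1, with -0.996. No source used here gives the read totals; the steps between low values show that 1 FPKM in the RA library rested on 0.731 times as many reads as in the DMSO library, so the depth of each value is unknown and low values are the less precise in the RA library. In all, 12968 loci reached 1 FPKM with RA and 13040 with DMSO, and the 10 highest loci held 60.3% and 54.5% of the FPKM sum in that order.

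**Figure D1:**
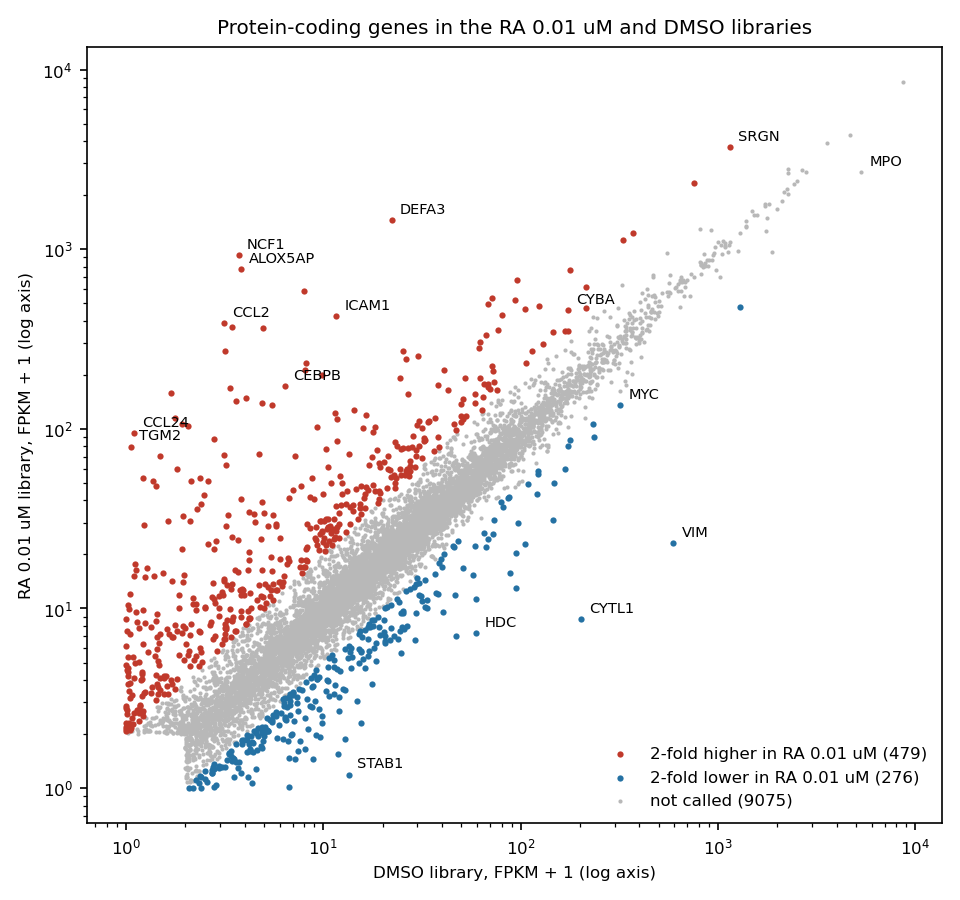
FPKM + 1 of 9830 protein-coding genes in the RA 0.01 uM library (vertical log axis) and the DMSO library (horizontal log axis), 1 point per gene. The 479 called higher genes lie above the grey band, up to NCF1 and ALOX5AP at 929 and 773 FPKM with RA, and the 276 lower ones lie below it, VIM and CYTL1 farthest out among abundant genes.

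**Figure D2:**
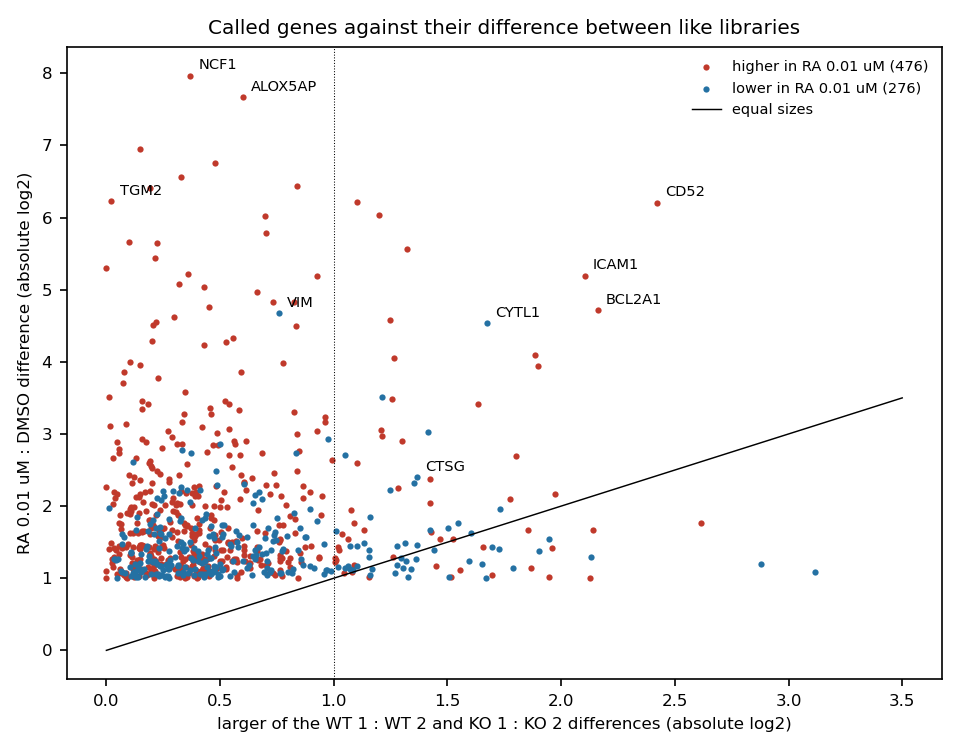
Absolute log2 difference between RA 0.01 uM and DMSO of each called gene (vertical axis) against the larger of its differences between WT 1 and WT 2 and between KO 1 and KO 2 (horizontal axis). Of 752 genes 716 lie above the line of equal sizes, and CD52, BCL2A1 and ICAM1 combine a large rise with a difference over 2-fold between like libraries (dotted line). Selection of the genes at 2-fold or more favours the count of 716.

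The cells of both libraries had the markers of the labelled line at the promyelocyte stage in part. MPO, the myeloperoxidase of primary granules, had 2678 FPKM with RA and 5301 FPKM with DMSO, CD33 had 42.7 FPKM with RA and 32 FPKM with DMSO and AZU1, azurocidin, had 117 FPKM with RA and 93.6 FPKM with DMSO. ELANE, neutrophil elastase, was near 0 in both, with 0.128 FPKM with RA and 0.117 FPKM with DMSO, and so was the progenitor receptor KIT, with 0.115 FPKM with RA and 0.179 FPKM with DMSO. The genes that the study concerns directly were not called: KDM1A, which encodes LSD1 (AOF2 in the table), had 52 FPKM with RA and 69.9 FPKM with DMSO; RARA had 11.4 FPKM with RA and 11.5 FPKM with DMSO; and PML had 27.1 FPKM with RA and 18.7 FPKM with DMSO. Reads of the fusion transcript are not separated from RARA and PML in these values.

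Genes that break RA down were among those that rose with RA. Of 21 listed genes of retinoid metabolism and binding, 11 passed the filter of 1 FPKM and 9 did not, 5 were higher, 0 were lower and the median was 0.10. DHRS3, a reductase that turns retinaldehyde back into retinol, reached 49.99 FPKM with RA and 1.14 FPKM with DMSO, a log2 difference of 4.58. Its largest difference between like libraries was 1.25, so that of RA and DMSO was well past it. DHRS9, a retinol dehydrogenase, had 127 FPKM with RA and 13.3 FPKM with DMSO (3.17). The CYP26 hydroxylases, which clear RA, were close to 0 with DMSO: CYP26B1 had 6.21 FPKM with RA and 0.0444 FPKM with DMSO, and CYP26A1 had 2.49 FPKM with RA and 0.0396 FPKM with DMSO. STRA6, the membrane receptor for retinol-binding protein, had 1.73 FPKM with RA and 0.133 FPKM with DMSO. CYP26A1, CYP26B1 and STRA6 reached 1 FPKM only with RA, so that passing the filter already fixed their direction. The uncalled members with the highest DMSO values were the retinal reductases RDH11, with 37.7 FPKM with RA and 38.3 FPKM with DMSO, and RDH14, with 15.3 FPKM with RA and 14.6 FPKM with DMSO. The enzymes that make RA, ALDH1A1, ALDH1A2 and ALDH1A3, were below 1 FPKM in both libraries.

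Receptors and genes known as receptor targets held some of the largest rises beside many uncalled members. Of 18 tested of 23 listed, 7 were higher, 0 lower, and the median was 0.67. Of the 18, 5 reached 1 FPKM only with RA (TGM2, ASB2, PLAAT4, RARG and RARB), so that the filter already fixed their direction. With no filter on low values the median was 0.45. TGM2, tissue transglutaminase (chromosome 20, 36190280 to 36227114, build hg18), had 78.5 FPKM with RA and 0.0609 FPKM with DMSO, a log2 difference of 6.23 that was among the largest of all. ASB2, a ubiquitin ligase subunit known as an RA target in these leukaemia cells, had 50.2 FPKM with RA and 0.376 FPKM with DMSO (5.22), and PRAM1, an adaptor of myeloid cells, had 231 FPKM with RA and 7.18 FPKM with DMSO (4.82). PLAAT4, the RA-induced tumour suppressor also called RARRES3, had 20.4 FPKM with RA and 0.914 FPKM with DMSO (3.49). Among the receptors themselves, RARG had 7.42 FPKM with RA and 0.135 FPKM with DMSO (2.89). RARB, with 1.07 FPKM with RA and 0.156 FPKM with DMSO (0.84), missed the call by size, whose scale understates changes near 0. The authors' deposited table marks RARB as significant, and it had 7.51 FPKM with RA 1 uM. RXRB stood at 23.4 FPKM with RA and 22.4 FPKM with DMSO. The coactivator NCOA3 had 23.5 FPKM with RA and 8.02 FPKM with DMSO (1.44), whereas the corepressor NCOR1 was not called, at 37.9 FPKM with RA and 30.9 FPKM with DMSO. CREB3L2, a transmembrane transcription factor, had 44.7 FPKM with RA and 15.9 FPKM with DMSO (1.44).

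Promoter sequences show where receptor hexamers lie in the genes that rose. RefSeq promoters (build GRCh38.p14, 250 bases before to 50 after each start) were held for 27305 genes, 8162 of the tested genes and 371 of the higher ones. The receptor hexamer AGGTCA was searched on both strands, and with its variants GGGTCA in the first base, AGTTCA in the third and GGTTCA in both, as direct repeats with 5, 2 or 1 bases between them. A repeat with 5 bases between was found in 0.106% of all genes with a promoter, in 0.0735% of tested genes and in 1 higher gene, CYP26A1. Repeats with 2 and 1 bases between were found in 0.0490% and 0.233% of tested genes and in 0 of the 371 higher ones. The CYP26A1 promoter is shown because that repeat is the textbook form of an RA response element; the capitals mark both hexamers, which read on the other strand as AGTTCA, and the first capital lies 90 bases before the start. The window is chr10:93073643-93073942, plus strand, GRCh38.p14.
CYP26A1: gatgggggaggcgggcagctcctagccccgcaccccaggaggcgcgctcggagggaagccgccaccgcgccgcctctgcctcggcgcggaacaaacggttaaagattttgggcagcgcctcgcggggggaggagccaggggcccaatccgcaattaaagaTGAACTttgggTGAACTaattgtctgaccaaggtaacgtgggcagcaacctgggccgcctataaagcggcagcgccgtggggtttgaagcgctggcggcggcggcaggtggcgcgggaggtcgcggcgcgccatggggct
The hexamer AGGTCA alone was far more common. It lay in 16.5% of all genes with a promoter, 13.5% of tested genes, 17.8% of higher genes (66 of 371), 14.6% of lower genes and 24.0% of genes at least 4-fold higher (31 of 129). These shares are descriptions, and no match says only that these letters are not in the window. The 60 bases around the match are given for 3 genes that rose strongly, with the hexamer in capitals. They are ALOX5AP (chr13:30713235-30713294, plus strand), PADI4 (chr1:17308067-17308126, plus strand) and DHRS3 (chr1:12596752-12596811, minus strand), all GRCh38.p14 and written along the gene's own strand.
ALOX5AP: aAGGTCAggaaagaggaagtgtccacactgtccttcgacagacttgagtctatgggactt
PADI4: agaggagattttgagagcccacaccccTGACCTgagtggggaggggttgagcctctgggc
DHRS3: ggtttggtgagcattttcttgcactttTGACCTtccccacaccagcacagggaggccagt
In ALOX5AP the hexamer reads AGGTCA on the gene's strand, and in PADI4 and DHRS3 it reads TGACCT, its form on the other strand. The palindrome TTGCGCAA, a C/EBP motif, was found in 0.331% of tested genes and in 1 higher gene, COTL1.

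The largest single rise on the FPKM + 1 scale, that of NCF1, belonged to the respiratory burst. With 0.1 FPKM added in place of 1 FPKM, TGM2 (8.93) and CCL24 (8.92) rose more than NCF1 (8.37). The phagocyte NADPH oxidase makes superoxide from a membrane pair, CYBA and CYBB, that is switched on by cytosolic subunits. All 8 listed genes were tested, 5 were higher, 0 lower, and the median was 1.76. NCF1, the organiser subunit p47phox (chromosome 7, 73826245 to 73841594, hg18), had 929 FPKM with RA and 2.72 FPKM with DMSO, a log2 difference of 7.97; NCF1 has near-identical pseudogenes, and reads could have been split among them. CYBB, the catalytic subunit, had 112 FPKM with RA and 10.7 FPKM with DMSO (3.28), and CYBA had 455 FPKM with RA and 173 FPKM with DMSO (1.39). The small GTPase RAC2 had 463 FPKM with RA and 104 FPKM with DMSO (2.14), while its relative RAC1, the ubiquitous form, had 94.5 FPKM with RA and 107 FPKM with DMSO. NCF4, with 66.1 FPKM with RA and 35.2 FPKM with DMSO (0.89), and RAP1A, with 65.9 FPKM with RA and 45.8 FPKM with DMSO, were not called. HVCN1, the proton channel that balances charge during the burst, went the other way and fell to 21.9 FPKM with RA, against 104 FPKM with DMSO (-2.19).

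Granule genes did not move as 1 block. Of 16 tested primary granule genes of 18 listed, 8 were higher and 4 lower, with a median of 0.96. The defensins and BPI had the largest rises: DEFA4 had 271 FPKM with RA and 2.18 FPKM with DMSO (6.42), DEFA3 had 1447 FPKM with RA and 21.2 FPKM with DMSO (6.03) and DEFA1 had 142 FPKM with RA and 2.62 FPKM with DMSO (5.30), where DEFA1 and DEFA3 are near-identical copies whose reads cannot be told apart with certainty. BPI, which binds bacterial endotoxin, had 114 FPKM with RA and 0.762 FPKM with DMSO (6.03), SERPINB1, an inhibitor of granule proteases, had 245 FPKM with RA and 25.2 FPKM with DMSO (3.23), and the proteoglycan SRGN, which packs granules, had 3702 FPKM with RA and 1143 FPKM with DMSO (1.69). PRTN3, proteinase 3, had 762 FPKM with RA and 178 FPKM with DMSO (2.09), with 1.77 between like libraries, and NKG7 had 54.5 FPKM with RA and 21.9 FPKM with DMSO (1.28). Falls were seen in other proteins of the same granules. CTSG, cathepsin G, fell to 10.3 FPKM with RA, against 58.6 FPKM with DMSO (-2.40), CST7, a cysteine protease inhibitor, to 12 FPKM with RA, against 93.4 FPKM with DMSO (-2.86), LYZ, lysozyme, to 10.9 FPKM with RA, against 45.3 FPKM with DMSO (-1.96) and MS4A3, a membrane protein of granulocyte precursors, to 25.3 FPKM with RA, against 64.3 FPKM with DMSO (-1.31). LYZ had differed by 1.73 between like libraries and CTSG by 1.37. MPO, the most abundant of them with DMSO, stopped just short of the line at -0.98. The authors' deposited table marks MPO as significant, and it differed by 0.12 between like libraries.

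Genes listed for later granules, which neutrophils fill after the promyelocyte stage, divided into silent, uncalled and rising ones. Of 22 listed, 10 stayed below 1 FPKM in both libraries, among them the secondary granule genes LTF, LCN2, MMP8, CRISP3 and CEACAM8. Of the 12 tested, 7 were higher and 0 lower, but 6 of the 12 reached 1 FPKM only with RA. PADI4, the deiminase behind neutrophil extracellular traps, had 47.3 FPKM with RA and 0.423 FPKM with DMSO (5.09). Its relative PADI2, which was not on the list, had 103 FPKM with RA and 1.06 FPKM with DMSO (5.66). CHI3L1, a chitinase-like protein of specific granules, had 33.1 FPKM with RA and 4.03 FPKM with DMSO (2.76). TCN2, which carries vitamin B12, had 7.05 FPKM with RA and 1.67 FPKM with DMSO (1.59). TCN1, also listed, stayed below 1 FPKM, with 0.0863 FPKM with RA and 0.189 FPKM with DMSO. FCAR, the IgA receptor, had 7.53 FPKM with RA and 2.47 FPKM with DMSO (1.3). Whether each listed gene encodes a protein of these granules was not tested. CEACAM6, CEACAM1 and ORM1 passed 2-fold at low levels of 1.08, 1.22 and 1.88 FPKM with RA. The gelatinase MMP9, with 25.6 FPKM with RA and 28.9 FPKM with DMSO, and the protease inhibitor SLPI, with 12.2 FPKM with RA and 13 FPKM with DMSO, were not called. CAMP, MMP25 and QPCT were not called either.

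**Figure D3:**
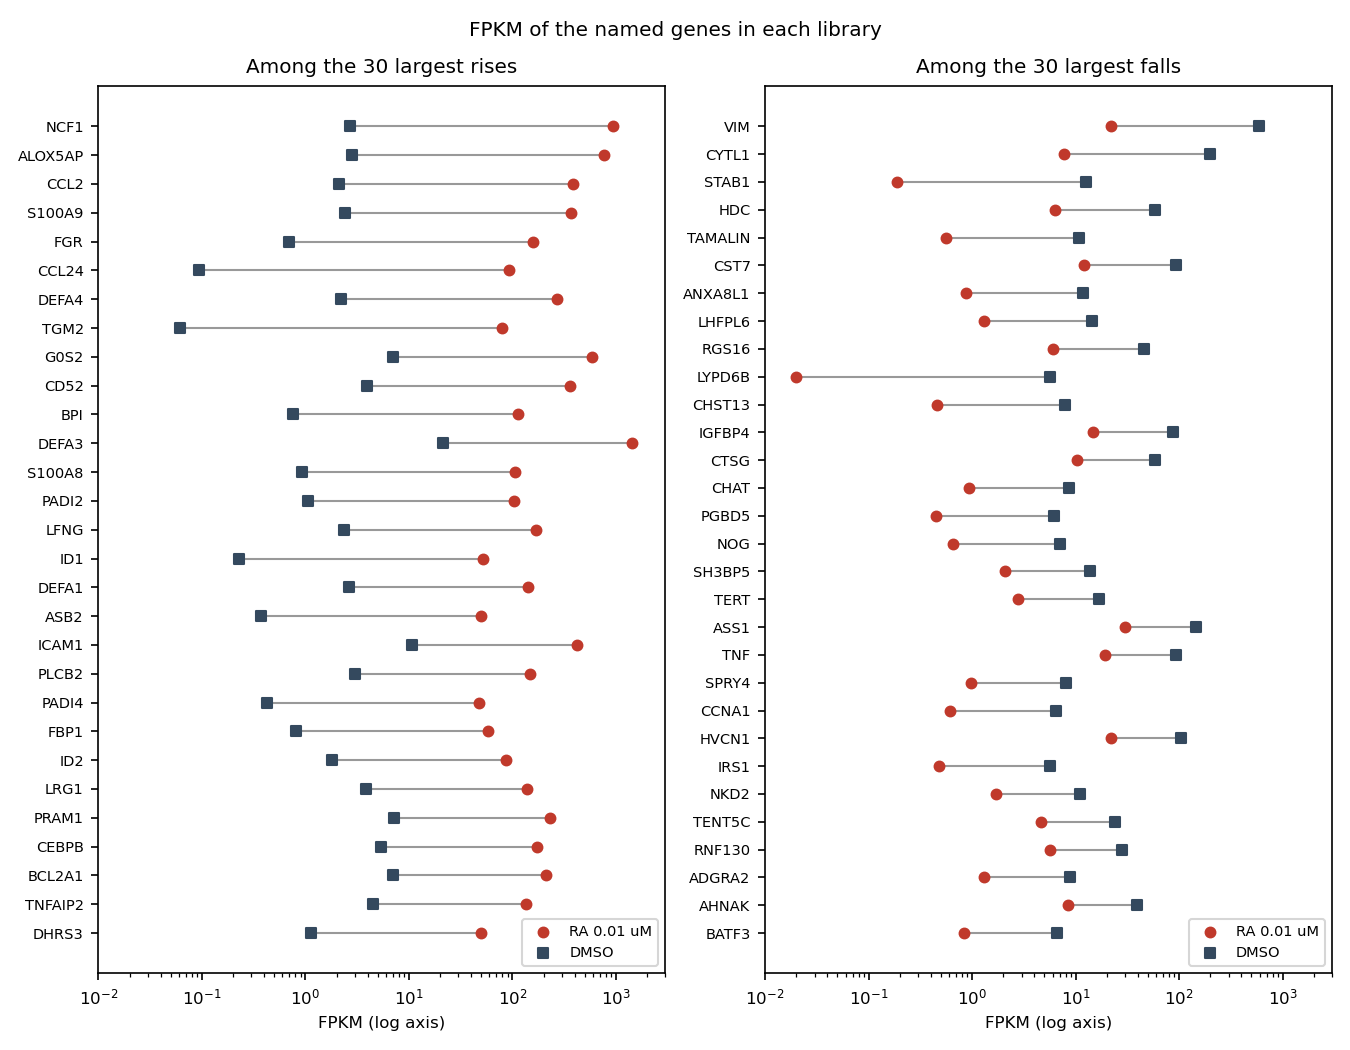
FPKM (log axes) of genes among the 30 largest rises (left) and of the 30 largest falls (right) in the RA 0.01 uM library (circles) and the DMSO library (squares), ordered by log2 difference on the FPKM + 1 scale. NCF1 has 929 FPKM with RA and 2.72 FPKM with DMSO at the top of the left panel, and VIM has 22.2 FPKM with RA and 593 FPKM with DMSO at the top of the right one.

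Adhesion molecules formed the list with the most calls upward. Of 19 tested of 22 listed, 12 were higher, 0 lower, and the median was 1.53. ITGB2, the beta chain of the leukocyte integrins, had 280.4 FPKM with RA and 60.4 FPKM with DMSO (2.2). Its partners ITGAM (CD11b) and ITGAX (CD11c) had 22.9 FPKM with RA and 2.68 FPKM with DMSO (2.70) and, for ITGAX, 41.6 FPKM with RA and 1.49 FPKM with DMSO (4.10); the table gives both the same locus span, and they differed by 1.8 and 1.88 between like libraries. ITGB7 had 61.6 FPKM with RA and 2.23 FPKM with DMSO (4.28), and ITGAL, the alpha chain of LFA-1, was not called at 2.92 FPKM with RA and 1.88 FPKM with DMSO. ICAM1, the ligand of these integrins, had 425 FPKM with RA and 10.6 FPKM with DMSO (5.20); it is the 1 gene among the 30 largest rises that the authors' deposited table does not mark as significant, and it differed by 2.10 between like libraries. ICAM3 had 209 FPKM with RA and 71.7 FPKM with DMSO (1.53), and ICAM2 had 5.81 FPKM with RA and 7.06 FPKM with DMSO. SELPLG, the selectin ligand PSGL-1, had 36.9 FPKM with RA and 13.2 FPKM with DMSO (1.42). CD38, an ectoenzyme long known as an RA marker in myeloid leukaemia cells, had 121 FPKM with RA and 10.5 FPKM with DMSO (3.41), PECAM1 had 42.3 FPKM with RA and 11.4 FPKM with DMSO (1.81), and CD52, a small surface glycoprotein, had 363 FPKM with RA and 3.93 FPKM with DMSO (6.21). The most abundant uncalled members with DMSO were CD44, with 63.8 FPKM with RA and 88 FPKM with DMSO, and ITGA5, with 67.1 FPKM with RA and 55.8 FPKM with DMSO.

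Surface receptors for chemoattractants and cytokines held fewer calls, all upward. Of 28 listed, 17 were tested, 6 were higher and 0 lower, with a median of 0.39. Of the 17, 3 reached 1 FPKM only with RA, among them CXCR2 and IL10RA, so that the filter already fixed their direction. FPR1, FPR2 and CCR2 were below 1 FPKM in both libraries. CCR1, a chemokine receptor, had 27.8 FPKM with RA and 4.24 FPKM with DMSO (2.46), TNFRSF1B, the type 2 TNF receptor, had 53.8 FPKM with RA and 11.2 FPKM with DMSO (2.17), and CXCR2, the receptor for CXCL8, had 4.4 FPKM with RA and 0.399 FPKM with DMSO (1.95). C3AR1 (1.59), IL10RA (1.44) and IFNGR1 (1.02) also passed 2-fold. The receptors most abundant with DMSO were not called, with 78 FPKM with RA and 62.9 FPKM with DMSO for TNFRSF1A and 86.4 FPKM with RA and 61.7 FPKM with DMSO for CXCR4. Of 32 listed Fc, Toll-like and pattern receptors 18 were tested, 5 were higher and 1 lower, with a median of 0.36, beside 0.58 between WT 1 and WT 2. TYROBP, the adaptor DAP12, had 84.1 FPKM with RA and 10.8 FPKM with DMSO (2.85), the inhibitory receptor SIRPA had 68.9 FPKM with RA and 16.7 FPKM with DMSO (1.99), and the inflammasome sensor NLRP3 had 29.7 FPKM with RA and 8.58 FPKM with DMSO (1.68). LILRB2 (1.35) and FCGRT (1.44) were the other calls upward, and FCGR2A, with 2.2 FPKM with RA and 5.74 FPKM with DMSO (-1.08), was the call downward; FCGRT and FCGR2A differed by more between like libraries, 1.66 and 1.27.

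Calls among signalling proteins of phagocytes were all upward as well. Of 22 tested of 25 listed, 6 were higher, 0 lower, 21 lay above 0 and the median was 0.78. Of the 22, 3 reached 1 FPKM only with RA, among them FGR, so that the filter already fixed their direction. FGR, a Src-family kinase of granulocytes, had 158 FPKM with RA and 0.689 FPKM with DMSO (6.56). LYN, a relative of FGR, was not called and had 30.1 FPKM with RA and 24.5 FPKM with DMSO (0.29). PTPN6, the phosphatase SHP-1, had 136 FPKM with RA and 48.8 FPKM with DMSO (1.46), the adaptor LCP2 had 65.1 FPKM with RA and 26.4 FPKM with DMSO (1.27), and PIK3CG, the kinase coupled to chemoattractant receptors, had 27.4 FPKM with RA and 10.7 FPKM with DMSO (1.28). SKAP2 was called too (1.24). LCP1, an actin bundler, and ARHGDIB, abundant in both libraries, had 575 FPKM with RA and 553 FPKM with DMSO and, for ARHGDIB, 1293 FPKM with RA and 807 FPKM with DMSO. PLCB2, the phospholipase of chemoattractant signalling, stood outside the list among the 30 largest rises, with 147 FPKM with RA and 3.05 FPKM with DMSO (5.19).

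Calgranulins and lipid mediator enzymes held some of the largest rises. S100A9 and S100A8, which form calprotectin in neutrophil cytosol, had 369 FPKM with RA and 2.44 FPKM with DMSO (6.75) and, for S100A8, 105 FPKM with RA and 0.921 FPKM with DMSO (5.79), and S100P had 354 FPKM with RA and 76.2 FPKM with DMSO (2.2). The other tested S100 genes were not called, among them S100A4 with 370.3 FPKM with RA and 305 FPKM with DMSO and S100A11 with 162 FPKM with RA and 218 FPKM with DMSO, so that 3 of 9 tested were higher and the list median was 0.49. ALOX5AP, the protein FLAP that hands arachidonic acid to 5-lipoxygenase (chromosome 13, 30207669 to 30236556, hg18), had 773 FPKM with RA and 2.81 FPKM with DMSO (7.67). PTGS1, the constitutive cyclooxygenase, had 27.7 FPKM with RA and 2.2 FPKM with DMSO (3.17), and CYP4F3, which inactivates leukotriene B4, had 6.51 FPKM with RA and 0.0156 FPKM with DMSO (2.89). PTGES, a prostaglandin E synthase, was listed at 0 with DMSO and at 5.16 FPKM with RA. With GGT5 (1.14) this made 5 of 8 tested genes higher and 0 lower, a median of 1.88, and LTA4H, at 89.5 FPKM with RA and 99.6 FPKM with DMSO, and TBXAS1, at 59.3 FPKM with RA and 31.3 FPKM with DMSO, were the most abundant uncalled members with DMSO. PTGS2 was listed at 0 in both libraries and was 1 of 8 members below 1 FPKM in both. CYP4F3 and PTGES reached 1 FPKM only with RA, so that passing the filter already fixed their direction. With no filter on low values the list median was 0.09 in place of 1.88.

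Myeloid transcription factors were called in both directions. Of 28 tested of 35 listed, 7 were higher, 2 lower, and the median was 0.27. CEBPB, a C/EBP factor of stress granulopoiesis, had 172 FPKM with RA and 5.36 FPKM with DMSO (4.76), and CEBPE, the factor of terminal granulocyte maturation, had 175 FPKM with RA and 37.1 FPKM with DMSO (2.2). Their relatives CEBPA and CEBPD were not called, with 36 FPKM with RA and 31.4 FPKM with DMSO for CEBPA and 22.5 FPKM with RA and 20.9 FPKM with DMSO for CEBPD. SPI1, which encodes PU.1, had 224 FPKM with RA and 70.5 FPKM with DMSO (1.66), IRF1 had 119 FPKM with RA and 15.5 FPKM with DMSO (2.86), and the inhibitors of helix-loop-helix factors ID1 and ID2 had 52 FPKM with RA and 0.226 FPKM with DMSO (5.43) and, for ID2, 86.6 FPKM with RA and 1.8 FPKM with DMSO (4.97). The falls were KLF6, with 1.84 FPKM with RA and 7.8 FPKM with DMSO (-1.63), and KLF4, with 0.0791 FPKM with RA and 1.58 FPKM with DMSO (-1.26), both zinc finger factors. MYB, a progenitor factor and the uncalled member with the highest DMSO value, had 79.9 FPKM with RA and 108 FPKM with DMSO, and ETV6 had 48.5 FPKM with RA and 95.8 FPKM with DMSO (-0.97). Among genes listed with LSD1, 24 tested of 25 had 3 calls upward, 0 downward and a median of -0.11. Whether each of them is a partner of LSD1 was not tested. GFI1B, the repressor that recruits LSD1 to chromatin, had 22.9 FPKM with RA and 1.87 FPKM with DMSO (3.06) with 1.21 between like libraries, GSE1, a subunit of the complex, had 71.4 FPKM with RA and 12.5 FPKM with DMSO (2.43), and the demethylase KDM6B had 10.7 FPKM with RA and 3.84 FPKM with DMSO (1.27). GFI1, the paralog of GFI1B, was uncalled at 41.4 FPKM with RA and 67.1 FPKM with DMSO (-0.68), and HDAC1 was uncalled at 141 FPKM with RA and 91.7 FPKM with DMSO.

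**Figure D4:**
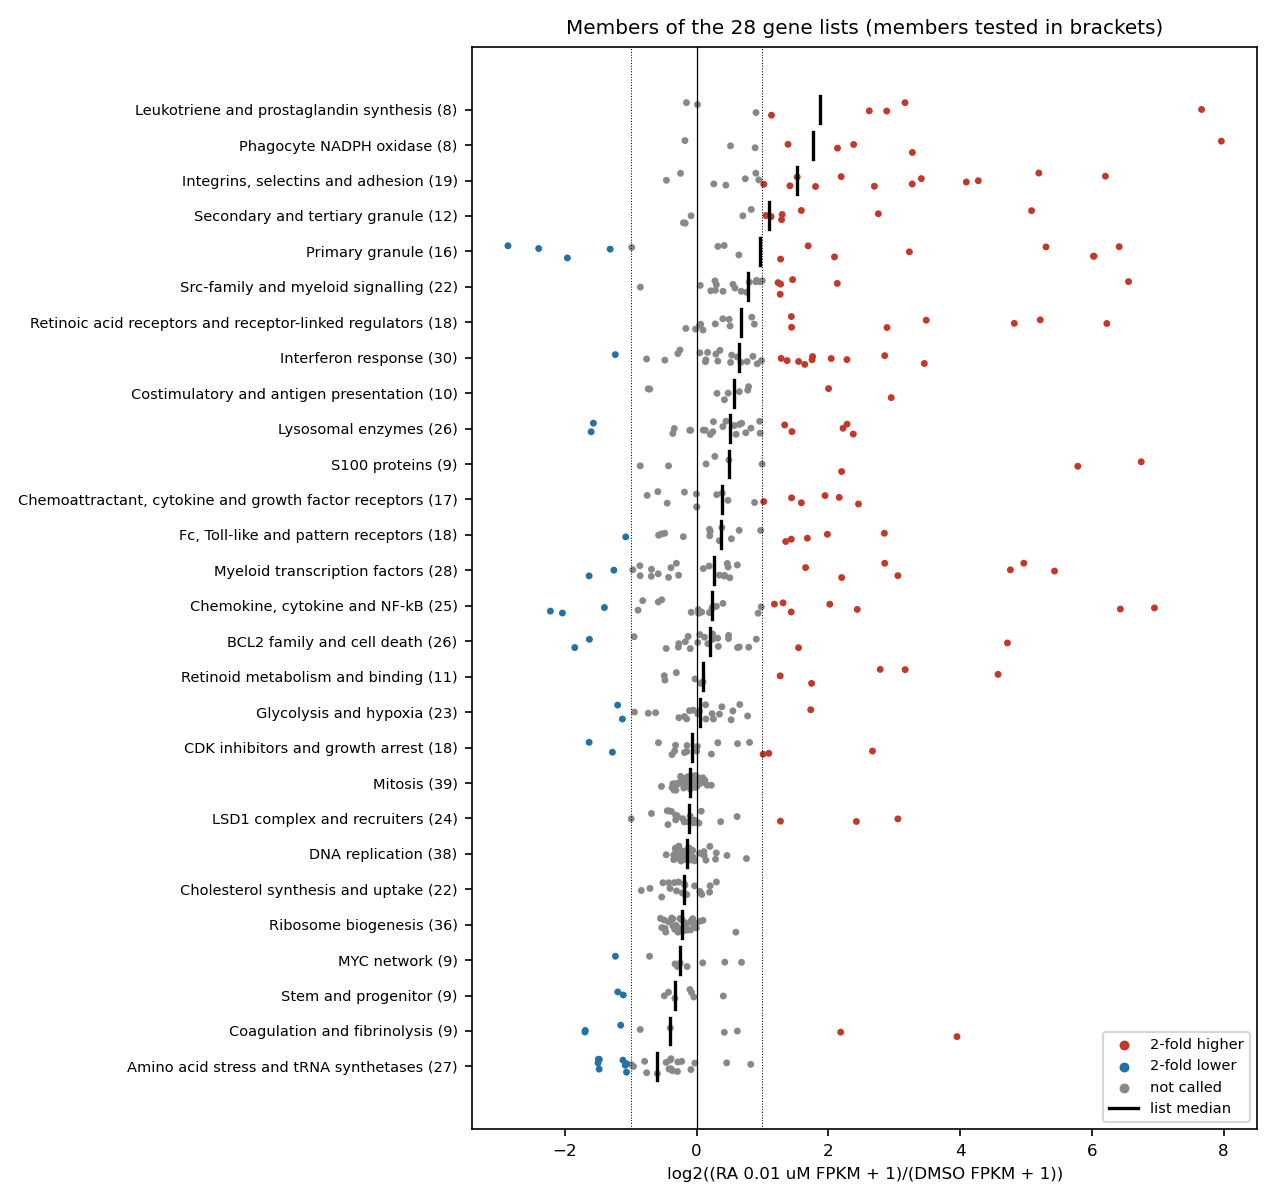
Log2 difference between RA 0.01 uM and DMSO (horizontal axis) of each tested member of 28 gene lists (rows, from the highest to the lowest median; tested members in brackets), coloured by call, with a bar at the list median and dotted lines at 2-fold. Medians of tested members run from 1.88 for leukotriene and prostaglandin synthesis (0.09 with no filter on low values) to -0.60 for amino acid stress. Mitosis, DNA replication, ribosome biogenesis and cholesterol synthesis hold no called gene.

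Chemokine genes gave 2 of the 6 largest rises, CCL2 and CCL24. CCL2, which draws monocytes (chromosome 17, 29606409 to 29608329, hg18), had 385 FPKM with RA and 2.12 FPKM with DMSO (6.95), and CCL24, which draws eosinophils, had 93.5 FPKM with RA and 0.0931 FPKM with DMSO (6.43). CCL23 had 9.05 FPKM with RA and 0.853 FPKM with DMSO (2.44), CXCL8 had 57.9 FPKM with RA and 20.8 FPKM with DMSO (1.44) and CCL4, which has a near-identical copy, had 5.94 FPKM with RA and 0.708 FPKM with DMSO (2.02). OSM (1.31) and IL1B (1.18) completed 7 higher genes of 25 tested. Of the 25, 7 reached 1 FPKM only with RA, among them CCL24, CCL23, CCL4 and IL1B, so that the filter already fixed their direction. Lower were TNF, with 19.3 FPKM with RA and 93.6 FPKM with DMSO (-2.22), IL1RN, the receptor antagonist of interleukin-1, with 0.0607 FPKM with RA and 3.35 FPKM with DMSO (-2.04), and LTB, with 2.98 FPKM with RA and 9.49 FPKM with DMSO (-1.40). The most abundant member, CCL5, had 362 FPKM with RA and 355 FPKM with DMSO. The list median was 0.23, beside 0.57 between WT 1 and WT 2 and 0.48 between KO 1 and KO 2, and TNF and LTB differed by 1.25 and 1.73 between like libraries.

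Interferon-response genes held 10 calls upward. Of 30 tested of 39 listed, 1 was lower, 25 lay above 0 and the median was 0.65. IRF1, given above, led with IFI6, which had 101 FPKM with RA and 8.29 FPKM with DMSO (3.46), IFI35, which had 9.64 FPKM with RA and 1.19 FPKM with DMSO (2.28), and OAS1, an activator of RNase L, which had 7.01 FPKM with RA and 0.944 FPKM with DMSO (2.04). The immunoproteasome subunits PSMB9 and PSMB8 had 79.3 FPKM with RA and 22.7 FPKM with DMSO (1.76) and, for PSMB8, 176 FPKM with RA and 67.3 FPKM with DMSO (1.37). UBE2L6 (1.55) and UBA7 (1.64), both of the ISG15 conjugation path, OAS2 (1.75) and IFIT3 (1.28) were the other calls, and HERC5, a ligase of that path, was lower at 1.89 FPKM with RA and 5.79 FPKM with DMSO (-1.23). The classical targets MX1, IFI44L and RSAD2 were below 1 FPKM in both libraries, and IFITM2 and IFITM1 were not called, with 279 FPKM with RA and 227 FPKM with DMSO for IFITM2 and 67.9 FPKM with RA and 60.3 FPKM with DMSO for IFITM1. The list median was 0.80 between WT 1 and WT 2 and 0.31 between KO 1 and KO 2, beside 0.65 here; UBA7, UBE2L6, OAS1, PSMB9 and IFIT3 were each 2-fold apart between like libraries.

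Genes of coagulation, by which acute promyelocytic leukaemia is known to cause bleeding, were called in both directions. Of 21 listed, 9 were tested, 2 were higher, 3 lower, and the median was -0.40. THBD, thrombomodulin, an anticoagulant receptor, had 34.7 FPKM with RA and 1.3 FPKM with DMSO (3.95), and PLAU, the plasminogen activator urokinase, had 49.1 FPKM with RA and 9.98 FPKM with DMSO (2.19). Its receptor PLAUR fell to 6.05 FPKM with RA, against 21.8 FPKM with DMSO (-1.69), and the plasminogen receptor ANXA2 to 9.15 FPKM with RA, against 31.9 FPKM with DMSO (-1.69). S100A10, the partner of ANXA2, was uncalled with 73.8 FPKM with RA and 134 FPKM with DMSO (-0.86). F3, tissue factor, which starts coagulation, fell to 3.75 FPKM with RA, against 9.56 FPKM with DMSO (-1.15).

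The largest falls included structural, secreted and progenitor genes. VIM, the intermediate filament vimentin (chromosome 10, 17311250 to 17319591, hg18), fell to 22.2 FPKM with RA, against 593 FPKM with DMSO (-4.68), and AHNAK, a giant scaffold protein, to 8.53 FPKM with RA, against 39.6 FPKM with DMSO (-2.09). CYTL1, a secreted protein first described in progenitor cells, fell to 7.71 FPKM with RA, against 201 FPKM with DMSO (-4.53); it differed by 1.67 between like libraries. STAB1, a scavenger receptor, had 0.188 FPKM with RA and 12.5 FPKM with DMSO (-3.51), HDC, the histamine-making enzyme, had 6.27 FPKM with RA and 58.4 FPKM with DMSO (-3.03), and RGS16, a brake on G protein signalling, had 6 FPKM with RA and 45.8 FPKM with DMSO (-2.74). TERT, the catalytic subunit of telomerase, had 2.79 FPKM with RA and 16.7 FPKM with DMSO (-2.23). IGFBP4 (-2.49), IRS1 (-2.18) and SPRY4 (-2.21), all of growth factor signalling, NOG (-2.29), a BMP antagonist, and BATF3 (-2.05) were lower too. Of 9 tested stem and progenitor genes of 22 listed, WT1 fell to 13.4 FPKM with RA, against 31.9 FPKM with DMSO (-1.20) and GATA2 to 12.6 FPKM with RA, against 28.5 FPKM with DMSO (-1.11), 0 were higher, and LMO2 had 34.1 FPKM with RA and 36.7 FPKM with DMSO.

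Growth genes held few calls outside amino acid supply. MYC was the 1 called gene of 9 tested in its network, with 135 FPKM with RA and 319 FPKM with DMSO (-1.23); MAX, its partner, had 73.5 FPKM with RA and 89.97 FPKM with DMSO, and the antagonist MXD1 had 8.73 FPKM with RA and 10.6 FPKM with DMSO. DNA replication, mitosis, ribosome biogenesis and cholesterol synthesis held 0 called genes of 38, 39, 36 and 22 tested, with medians of -0.15, -0.10, -0.22 and -0.18. The proliferation marker MKI67 had 76.9 FPKM with RA and 81 FPKM with DMSO, PCNA, the clamp of the replication fork, had 386 FPKM with RA and 402 FPKM with DMSO, and CDK1, the mitotic kinase, had 90.4 FPKM with RA and 86 FPKM with DMSO. Nucleolar NPM1 had 699.6 FPKM with RA and 1024 FPKM with DMSO (-0.55). Amino acid supply held the most falls of any list: of 27 tested genes of amino acid stress and tRNA charging, 9 were lower, 0 higher, and the median was -0.60, beside -0.35 between WT 1 and WT 2 and -0.55 between KO 1 and KO 2. The serine synthesis enzymes PHGDH and PSAT1 fell to 42.4 FPKM with RA, against 119.6 FPKM with DMSO (-1.48) and, for PSAT1, 23.5 FPKM with RA and 67.7 FPKM with DMSO (-1.49), asparagine synthetase ASNS to 25 FPKM with RA, against 71.4 FPKM with DMSO (-1.48), and the amino acid transporter subunits SLC7A5 and SLC3A2 to 58.6 FPKM with RA, against 166 FPKM with DMSO (-1.49) and, for SLC3A2, 79.4 FPKM with RA and 174 FPKM with DMSO (-1.12). CBS (-1.50), CTH (-1.06), SESN2 (-1.08) and TRIB3 (-1.06) were the other members called. SLC1A5 was not called at 334 FPKM with RA and 339.9 FPKM with DMSO, and ATF4, the transcription factor of this response, had 192 FPKM with RA and 257 FPKM with DMSO (-0.42). ASS1, which makes argininosuccinate, was outside the list and fell to 30.03 FPKM with RA, against 144 FPKM with DMSO (-2.23).

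Cell cycle brakes and survival genes changed singly. CDKN2D, an inhibitor of cyclin D kinases, had 100.3 FPKM with RA and 14.9 FPKM with DMSO (2.67), GADD45A had 28.4 FPKM with RA and 12.7 FPKM with DMSO (1.10), and CDKN1C passed at low level (1.01), while CCNG2 fell to 6.88 FPKM with RA, against 18.1 FPKM with DMSO (-1.28). With KLF6 this gave 3 higher and 2 lower of 18 tested, and CDKN1A had 2.29 FPKM with RA and 3.1 FPKM with DMSO and CDKN1B 14.3 FPKM with RA and 18.8 FPKM with DMSO. In the BCL2 family the anti-apoptotic BCL2 fell to 4.12 FPKM with RA, against 17.5 FPKM with DMSO (-1.85), whereas BCL2A1, another anti-apoptotic member, had 211 FPKM with RA and 7.04 FPKM with DMSO (4.72), with 2.16 between like libraries. The pro-apoptotic BIK had 37.1 FPKM with RA and 12 FPKM with DMSO (1.55) and BBC3, which encodes PUMA, had 4.45 FPKM with RA and 15.8 FPKM with DMSO (-1.63). These were the 4 calls among 26 tested, and MCL1 had 93.1 FPKM with RA and 59 FPKM with DMSO (0.65). PKM, pyruvate kinase, was the 1 glycolysis gene that rose, with 1229 FPKM with RA and 369 FPKM with DMSO (1.73); ENO2 (-1.20) and SLC2A3 (-1.13) fell, ENO2 having differed by 2.88 between like libraries, and GAPDH had 1775 FPKM with RA and 1720.4 FPKM with DMSO.

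Lysosomal and antigen presentation genes added a few calls. Of 26 tested lysosomal genes 5 were higher and 2 lower, with a median of 0.51. The cathepsins split: CTSD had 303 FPKM with RA and 61.3 FPKM with DMSO (2.29) and CTSZ had 212 FPKM with RA and 40.02 FPKM with DMSO (2.38), while CTSH fell to 21 FPKM with RA, against 65.7 FPKM with DMSO (-1.60). The acid sphingomyelinase SMPD1 (2.22), the peptidase TPP1 (1.45) and GUSB (1.34) rose. PSAP was uncalled with 266 FPKM with RA and 179 FPKM with DMSO, and CD63 with 164 FPKM with RA and 124 FPKM with DMSO. Of 10 tested costimulatory and antigen presentation genes, CD1D, with 14.3 FPKM with RA and 0.969 FPKM with DMSO (2.95), and TNFSF9, with 5.91 FPKM with RA and 0.722 FPKM with DMSO (2.00), were higher, and HLA-C, whose reads HLA relatives may share, had 951 FPKM with RA and 549.8 FPKM with DMSO. Class II genes such as HLA-DRA stayed below 1 FPKM in both libraries. Of the 10 tested genes 4 reached 1 FPKM only with RA, among them CD1D and TNFSF9, so that the filter already fixed their direction.

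Markers of cell types were read against this list of changes. The 12 granulocyte markers summed to 550.6 FPKM with RA, against 7.17 FPKM with DMSO. Most of the sum with RA came from S100A9 (369 FPKM) and S100A8 (105 FPKM). Of the 12, 6 were tested, 5 of these were higher, and 4 of the 6 reached 1 FPKM only with RA. CSF3R had a failed status, and FPR1, FCGR3B, CEACAM8, LTF and MMP8 stayed below 1 FPKM in both libraries. The 8 promyelocyte markers summed to 3637 FPKM with RA, against 5728 FPKM with DMSO, most of it MPO. Of 12 monocyte and macrophage markers 2 were tested and none called; FCGR1A had 5.65 FPKM with RA and 4.79 FPKM with DMSO, CD14 had 0.124 FPKM with RA and 0.109 FPKM with DMSO, and CD163, MRC1 and MSR1 were at or near 0. The 12 eosinophil, basophil and mast cell markers summed to 654 FPKM with RA, against 1547 FPKM with DMSO. PRG2, the eosinophil major basic protein, fell to 475 FPKM with RA, against 1294 FPKM with DMSO (-1.44), EPX, eosinophil peroxidase, to 8.42 FPKM with RA, against 23.7 FPKM with DMSO (-1.39), and CLC, the Charcot-Leyden crystal protein, rose to 4.4 FPKM with RA, against 0.0839 FPKM with DMSO (2.32). HDC, a further member, is given above. Of 10 lymphoid markers 4 were tested: CD79A, a B cell receptor chain, had 49.95 FPKM with RA and 1.62 FPKM with DMSO (4.28), and CD3D, a T cell receptor chain, had 60.8 FPKM with RA and 74.4 FPKM with DMSO, while CD3E and MS4A1 were below 1 FPKM in both. The erythroid, megakaryocyte, and fibroblast and epithelial lists had 1 tested gene each and no call, EPOR, ITGA2B and EPCAM. Any part of other cells in the gene results was not tested.

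Called genes also lay side by side along the chromosomes. Ordered by position, 41 of the 755 called genes fell in 12 runs of at least 3 neighbouring tested genes called in 1 direction, 11 runs higher and 1 lower. Whether these are more runs than a random order would give was not tested. The longest had 6 genes over 303 kb of chromosome 17: CD300A (1.76), CD300LB (2.56), CD300C (2.11), CD300LF (2.08), RAB37 (1.54) and NHERF1 (1.31), where the CD300 genes encode paired receptors of myeloid cells. CD300A had 63.8 FPKM with RA and 18.1 FPKM with DMSO but differed by 2.62 between like libraries, and CD300LF and RAB37 share 1 locus span in the table. On chromosome 3 the chemokine receptor genes CCR1, CCR3 (1.19) and CCRL2 (1.33) were higher over 207.8 kb, and so were DTX3L (1.11), PARP9 (1.29) and PARP14 (2.38), which act in interferon signalling. On chromosome 11 CTSD was followed by TNNI2, which had 8.61 FPKM with RA and 0.124 FPKM with DMSO (3.10), and LSP1, an actin-binding protein of leukocytes, which had 269 FPKM with RA and 24.2 FPKM with DMSO (3.42). Another run there held FXYD2, FXYD6, IL10RA and TMPRSS4, led by FXYD6 with 9.45 FPKM with RA and 0.0234 FPKM with DMSO (3.35), and a further one ESRRA (1.19), PRDX5 (1.53) and CCDC88B (4.50). On chromosome 1 the runs were SH3BGRL3 (2.80), CD52 and UBXN11 (1.46), the last pair with 1 shared span, and PPFIA4 (2.17), MYBPH (1.14) and CHI3L1. Integrin genes ITGAM, ITGAX and ITGAD (1.02) formed one on chromosome 16, the defensins DEFA6 (1.29), DEFA4, DEFA1 and DEFA3 one on chromosome 8, and CEACAM6, CD79A and ARHGEF1 (1.16) one on chromosome 19. The 1 lower run held the homeobox genes IRX3, with 11.2 FPKM with RA and 36.3 FPKM with DMSO (-1.61), and IRX5 (-1.24), and the protease MMP2 (-1.09) on chromosome 16. Genes of these families have similar sequences, and no source used here says how reads were shared among them. Shared spans also joined ESRRA with PRDX5, DTX3L with PARP9 and ITGAM with ITGAX.

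Most called genes stood within 2-fold of their level at the higher dose of 1 uM. Over 9786 tested genes with values at both doses, the RA 0.01 uM library was 2-fold above the RA 1 uM library in 0.174% and 2-fold below it in 0.562%. Of 478 genes called higher with RA 0.01 uM, 435 were within 2-fold of RA 1 uM, 12 stood above and 31 below it. Of 275 genes called lower, 269 were within 2-fold, 0 stood above and 6 below. The medians against DMSO, which both doses share, were 1.63 at 0.01 uM and 1.85 at 1 uM for higher genes and -1.30 and -1.25 for lower ones. The genes were chosen by their RA 0.01 uM value, so these counts are a description.

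Known RA targets were among the called genes of at least 5 FPKM furthest below their RA 1 uM level. In the order DMSO, RA 0.01 uM and RA 1 uM, CYP26A1 had 0.0396, 2.49 and 37.4 FPKM, PTGES 0, 5.16 and 87.8 FPKM, and TGM2 0.0609, 78.5 and 322 FPKM. GNG2, a G protein subunit, had 4.73, 28.5 and 106 FPKM, and SPP1, osteopontin, 4.08, 12.6 and 49.8 FPKM. The receptor ADGRE3, the sulfatase SULF2 and P-selectin SELP followed the same order at lower levels, up to 8.62, 9.90 and 5.46 FPKM with RA 1 uM. CCNA1, a cyclin of the germ line also made in myeloid leukaemia, was lowest at the low dose with 6.43, 0.608 and 5.27 FPKM. The other set was highest at the low dose. In the same order, CEBPB had 5.36, 172 and 85.6 FPKM, LFNG, a glycosyltransferase that modifies Notch, 2.37, 168 and 73 FPKM, ID2 1.8, 86.6 and 40.3 FPKM and ID1 0.226, 52 and 22.8 FPKM. GFI1B had 1.87, 22.9 and 8.83 FPKM, RARG 0.135, 7.42 and 2.17 FPKM, and the phosphatase DUSP5 1.75, 12.8 and 5.65 FPKM. ASAP2, PLEKHF2 and FSD1L had 7.24, 16.1 and 5.79 FPKM with RA 0.01 uM and 2.86, 7.17 and 1.47 FPKM with RA 1 uM. These genes come from the 10 furthest above and the 10 furthest below RA 1 uM among called genes of at least 5 FPKM at 1 of both doses; CEBPB, the last of the first set, was just under 2-fold above, and each value rests on 1 library.

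**Figure D5:**
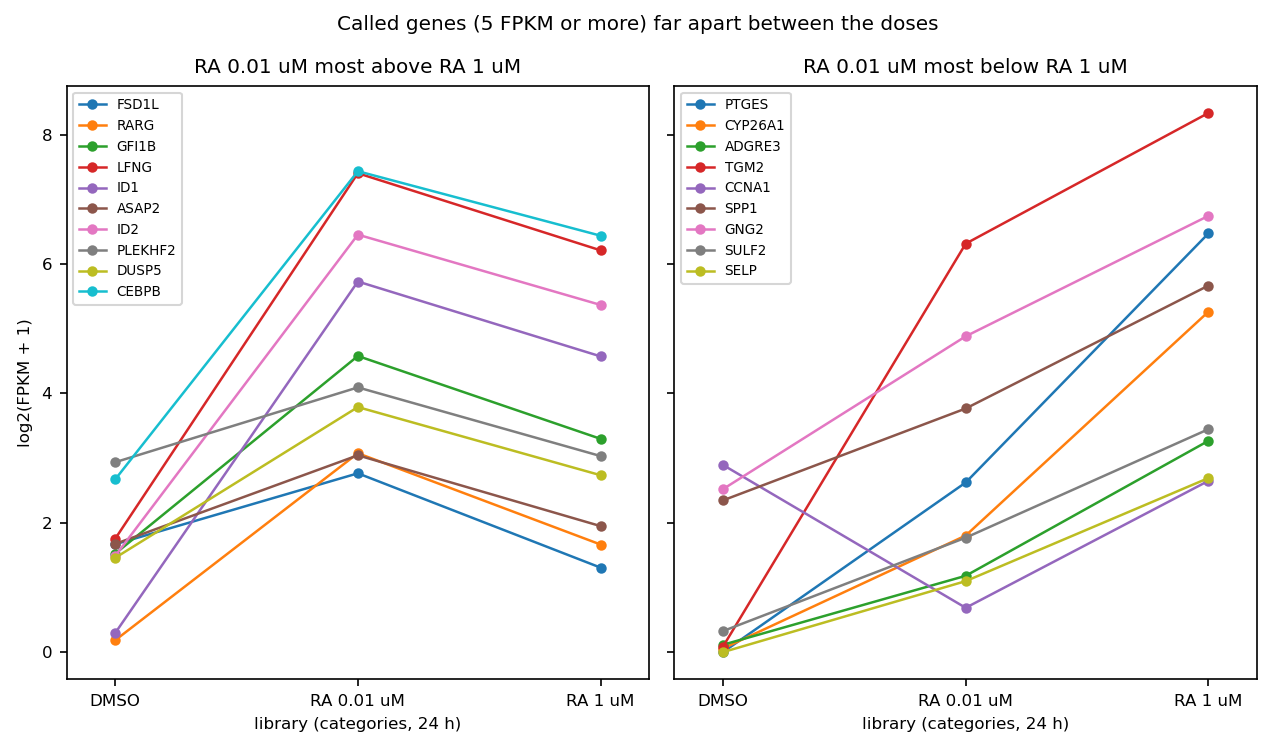
log2(FPKM + 1) in the DMSO, RA 0.01 uM and RA 1 uM libraries (categories on the horizontal axis, 1 library each, 24 h) of the 10 called genes of at least 5 FPKM at 1 of both doses that were most above RA 1 uM (left) and of genes among the 10 most below it (right). CEBPB and LFNG peak at 172 and 168 FPKM with RA 0.01 uM, while TGM2 and PTGES reach 322 and 87.8 FPKM with RA 1 uM.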

How the data were processed

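RNA sequencing libraries of NB4 cells were compared, 1 library of RA 0.01 uM against 1 of DMSO, grouped by the treatment named in the sample labels. Per the file headers, the authors deposited FPKM values in the layout of Cuffdiff, with a significance call for each pair of libraries; values of the knockout table carried an added 0.001 FPKM, which was subtracted. Genome build hg18 and the tools TopHat2 2.0.10, TopHat 1.3.1, Cuffdiff, Cufflinks and CASAVA 1.8 come from the submitters' processing notes, with no role or order. Annotation, strand and scaling between libraries are in none of the sources used here. The deposited fold change, p-value and q-value were not used, only the authors' calls.

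Failed loci (736) were left out. Symbols of 19761 loci were matched to RefSeq names, 3488 of them by synonym; 17526 were protein-coding with 1 locus, of which 441 failed and 7255 were below 1 FPKM in both libraries. From the FPKM values log2((RA + 1)/(DMSO + 1)) was computed, and 2-fold was a call. Start coordinates had 1 added. With 1 library a side no test, error or interval was possible. Alternatives were other pseudocounts, filters, scalings, thresholds, all loci and the authors' calls. The calculation was tested on simulated data. Tools were matplotlib 3.10.9, numpy 2.4.6, pandas 2.3.3 and Python 3.11.15.

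The members and the 36 gene lists (805 entries, 28 of pathways and 8 of cell type markers) were chosen with earlier results of these data known. Genes were named by a rule: the 30 highest and 30 lowest log2 differences at 5 FPKM or more in 1 library, called list members, 2 to 4 uncalled members per list with the highest DMSO values, KDM1A, RARA and PML, all genes of runs of 3 or more neighbours, and the 10 called genes most above and 10 most below RA 1 uM among those of at least 5 FPKM at 1 of both doses. Other uncalled list members, and the genes beside the line for a call, were chosen after their values were seen. A list member that reached 1 FPKM only with RA had to lie above its DMSO value, so counts over tested members are descriptions. Values of a few genes that this rule names are not reported here; counts, medians and sums include them.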

Additional observations from a re-analysis of the deposited data

How the results depend on the processing

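The counts of 479 higher and 276 lower genes moved by over 1.5 times with the fold threshold, the pseudocount and the choice of loci. A pseudocount of 0.1 FPKM gave 458 lower genes (and 628 higher ones), and a pseudocount of 5 FPKM gave 292 higher and 98 lower. A 4-fold threshold gave 171 higher and 31 lower, and all loci in place of protein-coding genes gave 737 higher and 542 lower. Within 1.5 times the main counts were a filter at 5 FPKM (394 higher, 194 lower), rescaling to a median of 0 (525, 242) and quantile normalization (489, 269). So were the authors' calls (378, 204), genes under 2-fold between like libraries (424, 225) and values from other pairs (479, 276). Use of no filter also gave 479 and 276, which was fixed in advance. With 1 FPKM added, a gene below 1 FPKM in both libraries cannot reach 2-fold. A list median or a gene counted as moved if its change passed its own difference between like libraries. Genes that vary between like libraries thus count as unmoved after larger shifts, such as BPI from 6.03 to 7.05 with the pseudocount of 0.1 FPKM. Of 251 recomputed list medians 39 moved. Named genes were recomputed only with the pseudocount of 0.1 FPKM and with rescaling to a median of 0. Of these 120 values 29 moved, 27 of them with that pseudocount. No direction reversed, but for the named genes this was fixed in advance. A changed pseudocount cannot change the sign of a gene's difference. Rescaling removed a median of -0.06, and the smallest named difference was -2.05, that of BATF3. No list median changed sign, but some became 0, such as coagulation with no filter on low values. The erythroid list had no gene left at 5 FPKM. No paired analysis was possible because each group has 1 library and no test was made, and for the same reason no library could be left out. Depth is unknown, so no limit from counting could be set.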

Other observations

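Genes outside the lists made up part of the largest changes. G0S2, an inhibitor of the lipase ATGL, had 588 FPKM with RA and 6.95 FPKM with DMSO (6.21), with 1.10 between like libraries. LRG1, a glycoprotein that neutrophils store, had 137 FPKM with RA and 3.87 FPKM with DMSO (4.83), and TNFAIP2 had 135 FPKM with RA and 4.5 FPKM with DMSO (4.63). FBP1, a gluconeogenic phosphatase, had 58.5 FPKM with RA and 0.813 FPKM with DMSO (5.04). LFNG, given above for its dose order, had 168 FPKM with RA and 2.37 FPKM with DMSO (5.65).

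Several of the largest falls had low levels with RA. TAMALIN (GRASP in the table) had 0.556 FPKM with RA and 10.8 FPKM with DMSO (-2.93), CHST13, a sulfotransferase, 0.453 FPKM with RA and 7.91 FPKM with DMSO (-2.62), and PGBD5, a gene derived from a transposase, 0.446 FPKM with RA and 6.18 FPKM with DMSO (-2.31). CHAT, the enzyme that makes acetylcholine, had 0.931 FPKM with RA and 8.64 FPKM with DMSO (-2.32). ANXA8L1, which has near-identical copies, had 0.868 FPKM with RA and 11.8 FPKM with DMSO (-2.78), and LHFPL6 had 1.31 FPKM with RA and 14.5 FPKM with DMSO (-2.74). LYPD6B (-2.71), SH3BP5 (-2.27), NKD2 (-2.16), TENT5C (-2.13), RNF130 (-2.12) and ADGRA2 (-2.10) were the remaining genes among the 30 largest falls.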
